A study of Drosophila melanogaster with 3 samples.

Results

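The genes that encode the subunits of the proteasome were examined for binding of Doc3 in fly embryos. They were taken by symbol (Prosalpha, Prosbeta, Rpn or Rpt and a number) from the protein-coding genes of the main chromosome arms, which gave 48 of 13945 genes. Of these, 8 encode ordinary subunits of the lid, 10 of the base and 14 of the core particle. The remaining 16 are copies whose symbols carry an R or a T after the subunit number, such as Rpt3R and Prosalpha4T1. The measurement was chromatin immunoprecipitation followed by sequencing (ChIP-seq) on whole Drosophila melanogaster embryos aged 0 to 24 hours. The embryos, of the strain Doc3-GFP, carried an inserted transgene for Doc3 joined to enhanced green fluorescent protein (eGFP), and an anti-GFP antibody was used for the pull-down. All 3 samples were biological replicates of 1 group, and no input, mock or untagged sample was analysed here. With 1 group no test between conditions could be made, so the values are given as descriptions beside the same values over all coding genes. All cells of the embryo were pooled, so a peak in a few cells and a weak peak in many cannot be told apart.

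The proteasome is the protease that degrades proteins marked with ubiquitin. Its core particle is a barrel of stacked rings, in which alpha subunits form the gate and beta subunits hold the cutting sites. Its regulatory particle consists of a base, with a ring of Rpt ATPases that unfold the substrate, and a lid, which removes the ubiquitin chain. Every cell needs the ordinary subunits, whereas many of the fly's copies are known from the male germ line. Doc3 is a T-box transcription factor known for its part in the amnioserosa and the heart.

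The conservative list of the series, which derives from all 3 replicates, held 2793 peaks. A conservative peak had its summit within 500 bp of a transcription start site (TSS) at 18 of the 32 ordinary subunit genes, and at 2 of the 16 copies. Together these were 20 of 48 members (41.7%), set against 21.4% of all coding genes. The count was 7 of 10 for the base, 4 of 8 for the lid and 7 of 14 for the core particle. Within the base, 5 of the 6 Rpt ATPases had a peak (Rpt4 had none), as had 2 of the 4 others, Rpn2 and Rpn10. Within the core, 3 of 7 alpha and 4 of 7 beta subunits had one. The copies, at 12.5%, were below the share of all coding genes, but their count is small and the difference was not tested. Among coding genes with no opposite-strand coding TSS within 500 bp upstream, the share was 12.4%. Of the 16 copies, 13 are of that kind, and 0 of these 13 had a peak. Both copies with a peak were among the 3 that have such a TSS.

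**Figure D1:**
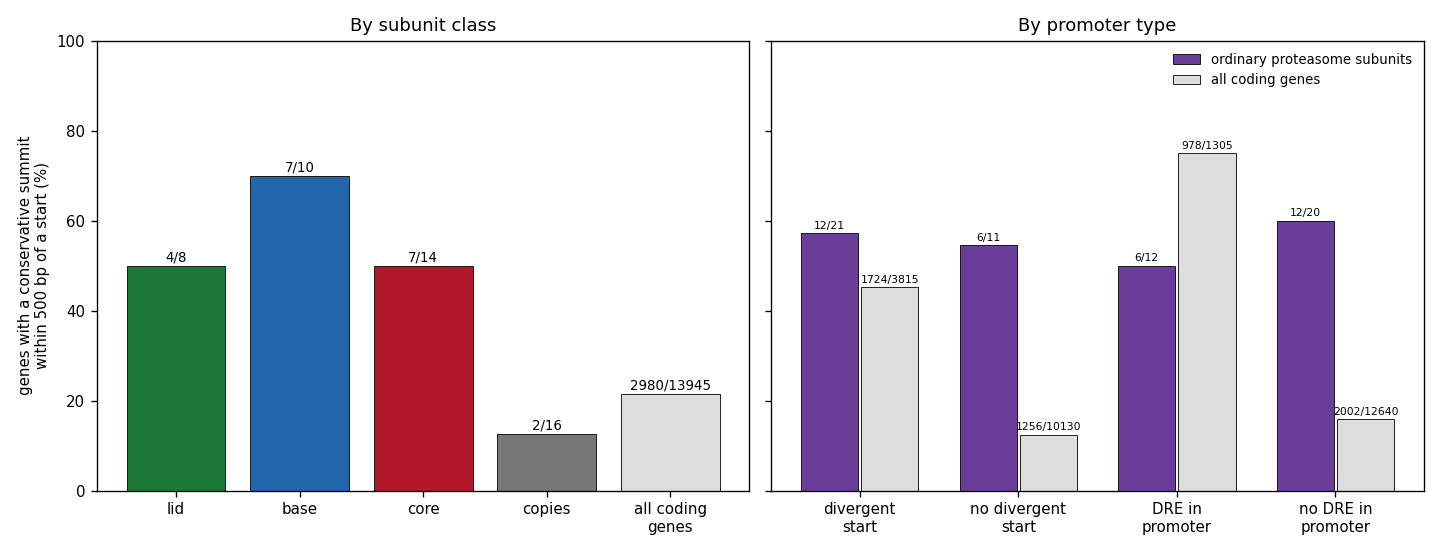
Share of genes with a conservative summit within 500 bp of a TSS, in percent, with the counts above the bars. The left panel shows the lid, base and core subunits, the copies and all coding genes. The right panel splits the 32 ordinary subunits (purple) and all coding genes (grey) by promoter type, where DRE stands for TATCGATA. The purple bars lie between 50 and 60%, while the grey bars run from 12.4 to 74.9%.

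The sequence under the summits differed from subunit to subunit, and 6 promoters with a peak show the range. Each sequence is centred on the summit and is read 5′ to 3′ along the gene's strand from the RefSeq assembly of release 6, the same sequence as dm6. Capitals mark TATCGATA, the DNA replication-related element (DRE) read by the factor DREF, or its first 7 letters on either strand, and GGTGTGA, the core bound by T-box proteins. In these windows Rpt5 held a full DRE, Rpn2 and Rpt6 held a pair of 7-letter copies each, Prosbeta7 held the T-box core, and Prosbeta2 and Rpn10 held none of these. Prosbeta2 does have a full DRE outside its window, 110.5 bp downstream of the summit and 6.5 bp upstream of its TSS.
Rpt5, chr3R:23752800-23752900, plus strand: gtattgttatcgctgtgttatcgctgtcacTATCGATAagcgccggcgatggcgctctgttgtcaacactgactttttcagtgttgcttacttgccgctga
Rpn2, chr3R:29153423-29153523, plus strand: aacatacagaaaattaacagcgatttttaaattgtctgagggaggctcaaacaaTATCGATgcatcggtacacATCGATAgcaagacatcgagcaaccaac
Rpt6, chrX:21315956-21316056, plus strand: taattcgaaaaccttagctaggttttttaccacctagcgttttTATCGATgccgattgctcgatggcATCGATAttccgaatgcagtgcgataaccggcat
Prosbeta7, chr3R:5358181-5358281, minus strand: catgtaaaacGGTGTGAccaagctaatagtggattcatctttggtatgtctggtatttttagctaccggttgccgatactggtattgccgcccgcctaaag
Prosbeta2, chr3L:14999784-14999884, plus strand: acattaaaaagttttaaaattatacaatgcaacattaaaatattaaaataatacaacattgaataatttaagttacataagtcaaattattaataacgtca
Rpn10, chr3L:21536956-21537056, plus strand: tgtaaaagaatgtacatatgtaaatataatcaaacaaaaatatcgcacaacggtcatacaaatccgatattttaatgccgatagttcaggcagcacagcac

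The 2 copies with a peak are shown in the same way, followed by copies and ordinary subunits without a peak, whose sequences are centred on the 5′-most TSS. Rpt3R held a full DRE near the end of its window and Prosbeta2R2 held none of the marked elements. Prosbeta2R1 and Prosalpha4T1 had no peak and none of these elements, whereas Rpn7, Rpn9 and Prosalpha6 had no peak but held a full DRE. The sequences shown are examples only. Other ordinary subunits without a peak, among them Rpn11, Rpt4 and Prosbeta4, held no full DRE in such a window. In Rpn7 the second run of capitals is GGTCACACT, a core promoter element called Motif 1.
Rpt3R, chr3R:9756245-9756345, minus strand: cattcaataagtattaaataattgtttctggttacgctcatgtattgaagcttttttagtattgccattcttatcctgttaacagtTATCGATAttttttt
Prosbeta2R2, chr3R:5219598-5219698, minus strand: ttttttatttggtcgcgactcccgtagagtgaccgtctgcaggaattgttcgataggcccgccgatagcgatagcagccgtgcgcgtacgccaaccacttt
Prosbeta2R1, chrX:5808904-5809004, plus strand: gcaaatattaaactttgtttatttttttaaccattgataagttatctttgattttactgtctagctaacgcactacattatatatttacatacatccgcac
Prosalpha4T1, chr3R:20749024-20749124, minus strand: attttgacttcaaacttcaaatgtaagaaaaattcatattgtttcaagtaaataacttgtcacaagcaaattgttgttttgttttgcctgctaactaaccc
Rpn7, chr3R:22462004-22462104, minus strand: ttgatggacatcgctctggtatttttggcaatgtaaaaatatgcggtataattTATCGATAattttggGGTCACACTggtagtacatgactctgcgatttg
Rpn9, chr3R:23733412-23733512, minus strand: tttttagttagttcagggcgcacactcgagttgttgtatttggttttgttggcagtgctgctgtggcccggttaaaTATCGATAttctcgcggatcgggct
Prosalpha6, chr2L:10221301-10221401, plus strand: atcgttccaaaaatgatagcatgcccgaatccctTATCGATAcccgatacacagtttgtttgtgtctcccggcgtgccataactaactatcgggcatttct

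The strength of each peak was followed in the replicates through the authors' signal value, which the peak caller gave to each region. The scale is not stated and differs between lists, so each gene was placed by its highest signal within 500 bp of a TSS among all 13945 coding genes of the same replicate, as a percentile. The ranked lists held 30159, 59389 and 141211 regions in replicates 1, 2 and 3, and gave a value to 7436, 9312 and 11227 coding genes. Genes with no region shared the lowest place. The median percentile of the ordinary subunits was 81.9, 82.4 and 80.4 in the 3 replicates (81.6 ± 1.02, SD, n = 3), where all coding genes have a median of 50. The copies had medians of 23.3, 38.6 and 48.5 (36.8 ± 12.7, SD, n = 3). The copies' median in replicate 1 is the shared place of genes without a region, since 4 of 16 copies had one there, 9 in replicate 2 and 14 in replicate 3.

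**Figure D2:**
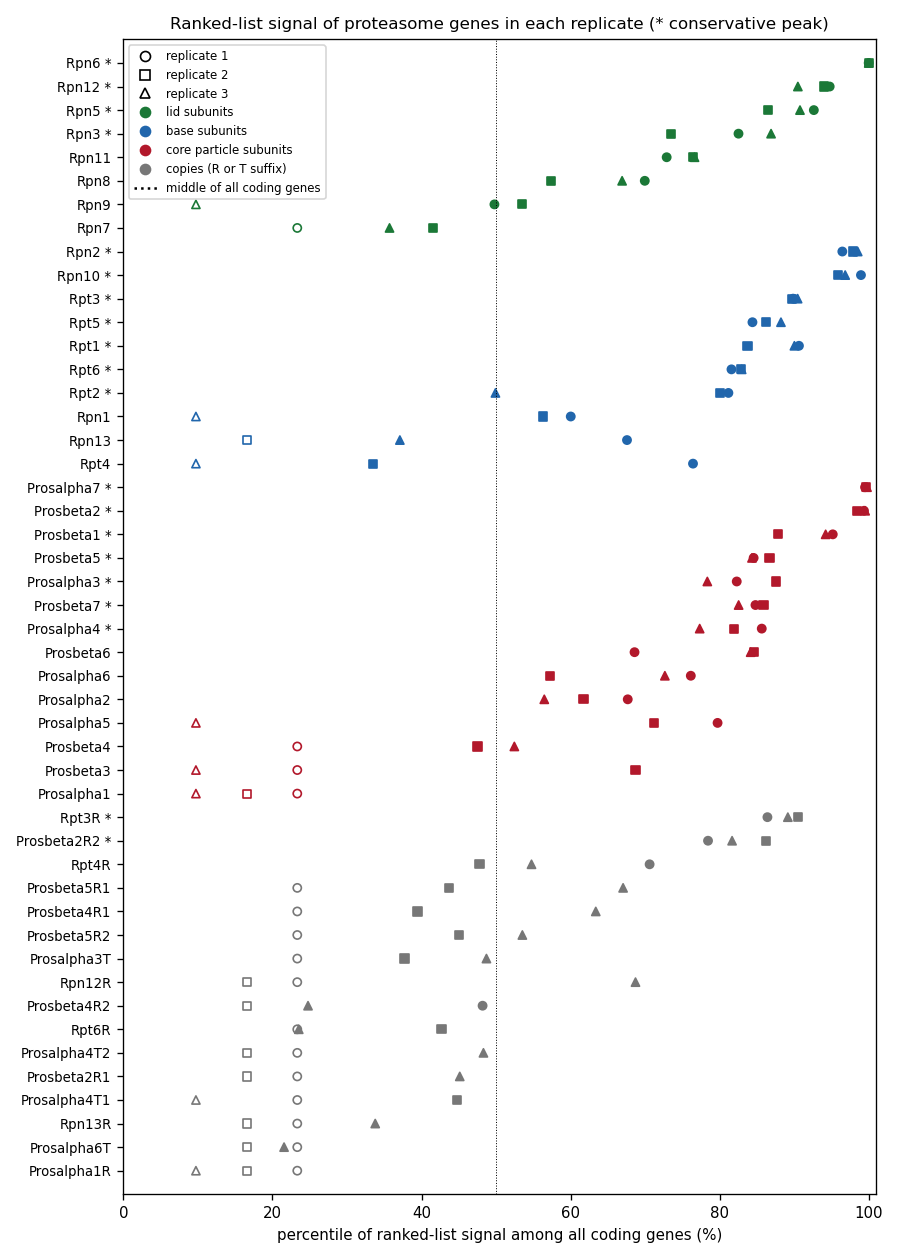
Percentile of each member's ranked-list signal among all coding genes (horizontal axis, %), with 1 symbol per replicate, open where the list held no region at the gene. Members with a conservative peak carry a star. From Rpn6 near 100 in each replicate the subunits run down to Prosalpha1, and the copies lie mostly left of the dotted line. Rpt3R and Prosbeta2R2 lie to the right in every replicate. Some other copies lie to the right in part of the replicates, such as Rpt4R in replicates 1 and 3 and Rpn12R in replicate 3.

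In the lid, Rpn6, which holds the particle together at its joint with the core, had the strongest peak of all members, with a conservative signal of 1330.1 on 2R from 14752157 to 14752608. Its ranked-list signals were 265, 552 and 510 in replicates 1, 2 and 3, and its percentile was 99.98 in each. It therefore stood near the top of all coding genes in every replicate. The summit lay in an intron of Rpn6, 106 bp upstream of the nearest of its 2 TSSs and 144 bp upstream of ave, a scaffold of the Ras pathway that is transcribed the other way. Rpn12 followed at 297 (3L from 16582815 to 16582973), with signals of 74.9, 142 and 88.4 and a percentile of 93.1 ± 2.28 (SD, n = 3). Rpn5, at 249.98 (3R from 5788967 to 5789450), had signals of 62.9, 82.1 and 90.5 and a percentile of 90.0 ± 3.14. Its strongest summit was 284 bp upstream of its TSS, in an intron of the neighbouring Hat1, a histone acetyltransferase gene, and another conservative summit, with a signal of 45.1, lay 84 bp from that TSS. Rpn5 therefore stood at 45.1 with summits within 250 bp only, and kept neither peak where each was given to the nearest TSS, which in both cases is one of Hat1. Rpn3 had the weakest lid peak, at 129. Its signals were 28.4, 40.3 and 65.0, and a thresholded peak was found in replicate 3 alone.

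The other lid genes had no conservative peak, yet were not alike. Rpn11, the enzyme that cuts off the ubiquitin chain, had signals of 16.7, 45.5 and 34.6 and a percentile of 75.3 ± 2.11 (SD, n = 3), with a thresholded peak in replicate 2. Rpn8, the partner of Rpn11, reached 64.7 ± 6.56. Rpn9 and Rpn7 reached 37.7 ± 24.3 and 33.5 ± 9.31, and each lacked a region in 1 replicate. Among members without a peak, the closest conservative summit lay 1312 bp from the TSS of Rpn11, so no member lay just outside the limit of 500 bp. The farthest summit counted was the 284 bp of Rpn5.

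In the base, the scaffold Rpn2 and the ubiquitin receptor Rpn10 were strongest. Rpn2 had a conservative signal of 548 (3R from 29153278 to 29153588), replicate signals of 89.0, 225 and 213, and a percentile of 97.6 ± 1.06 (SD, n = 3). Rpn10 had a conservative signal of 516 (3L from 21536885 to 21537152), replicate signals of 127, 171 and 162, and a percentile of 97.2 ± 1.56. Rpn2 was the higher of the pair in replicates 2 and 3 and Rpn10 in replicate 1, so their order is within the spread of the replicates. The summit of Rpn10 lay in its 5′ UTR, 6 bp downstream of a TSS. That of Rpn2 lay 51 bp upstream, between the gene and Slbp, which encodes the binding protein of histone mRNA ends.

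The Rpt ATPases had moderate peaks. Rpt3 led at 261 (X from 11124707 to 11124944), with signals of 50.7, 104 and 87.9 and a percentile of 90.0 ± 0.38 (SD, n = 3). Rpt5 had 204 (3R from 23752608 to 23753091), with signals of 32.1, 80.6 and 74.1. Rpt1 had 172 (2R from 7653763 to 7654246), with signals of 54.1, 69.0 and 85.3. These 3 had thresholded peaks in every replicate, and the summits of Rpt3 and Rpt5 lay nearer the TSS of CG11122 and RanBP3 than their own. Rpt6 at 127 and Rpt2 at 112 had one in replicate 2 only, and Rpt2 was uneven, with percentiles of 81.2, 80.0 and 49.9. Rpt4, Rpn1 and Rpn13 were without a peak, at 39.9 ± 33.8, 42.0 ± 28.0 and 40.4 ± 25.6 (SD, n = 3), and each lacked a region in 1 replicate. Rpn1 and Rpn2 are the pair of large scaffolds of the base, and Rpn10 and Rpn13 are both ubiquitin receptors. A peak was called for 1 gene of each pair, where 18 of the 32 ordinary subunits had one. The lid partners Rpn8 and Rpn11 both had none.

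In the core particle, Prosalpha7 of the outer ring had a conservative signal of 862 (2R from 9847733 to 9848097), replicate signals of 153, 360 and 323 and a percentile of 99.6 ± 0.13 (SD, n = 3). Prosbeta2, the subunit with trypsin-like activity, had 717 (3L from 14999628 to 15000024), replicate signals of 144, 252 and 278 and a percentile of 99.1 ± 0.56. Both stood near the top of all coding genes in every replicate. Prosbeta1, the caspase-like subunit, had 307 (2R from 16014637 to 16015120), with signals of 77.5, 89.8 and 122. Prosbeta5, the chymotrypsin-like subunit, had 169 (2R from 10819675 to 10820158), with signals of 32.6, 83.4 and 53.8. Prosbeta1, Prosbeta2 and Prosbeta5, which carry the cutting sites, each had a conservative peak and thresholded peaks in all 3 replicates. For comparison, 56.25% of ordinary subunits and 21.4% of all coding genes had a conservative peak. Thresholded peaks in all 3 replicates were found at 12 of 32 ordinary subunits (37.5%) and 12.5% of all coding genes. The difference was not tested. The summit of Prosbeta2 lay nearer its own TSS than that of another gene. That of Prosbeta1 lay 92 bp from its own TSS and 29 bp from that of Rrp42, and that of Prosbeta5 lay 61 bp from its own and 33 bp from that of dgo, so neither keeps a peak where each peak is given to the nearest TSS only. Prosalpha3, Prosbeta7 and Prosalpha4, from 146 to 163 in conservative signal, had thresholded peaks in replicates 1 and 2 and none in replicate 3.

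Of the core subunits without a conservative peak, Prosbeta6 came closest, with signals of 14.2, 73.0 and 53.2, a percentile of 79.1 ± 9.12 (SD, n = 3) and a thresholded peak in replicate 2. Prosalpha6 had signals of 19.8, 24.5 and 30.6 and Prosalpha5 had 23.8, 36.7 and no region in replicate 3. Prosbeta6 thus lay within the range of the weaker called subunits in replicates 2 and 3, and below it in replicate 1. Prosalpha2, Prosbeta4 and Prosbeta3 had percentiles of 62.0 ± 5.60, 41.1 ± 15.6 and 33.9 ± 30.9. Prosalpha1 had no region in any ranked list. It has a copy next to it, Prosalpha1R, and the 583 aligned bases around the starts of both genes were 100% identical. None of the 952 stretches of 50 bases within 500 bp of either start occurs once only in the genome, so reads of up to 50 bases from them have no unique place. Read length and the handling of such reads are not stated, so both genes are uncertain. Without this pair the counts were 18 of 31 ordinary subunits and 2 of 15 copies. In the other 46 members at least 93.1% of such stretches were unique.

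**Figure D3:**
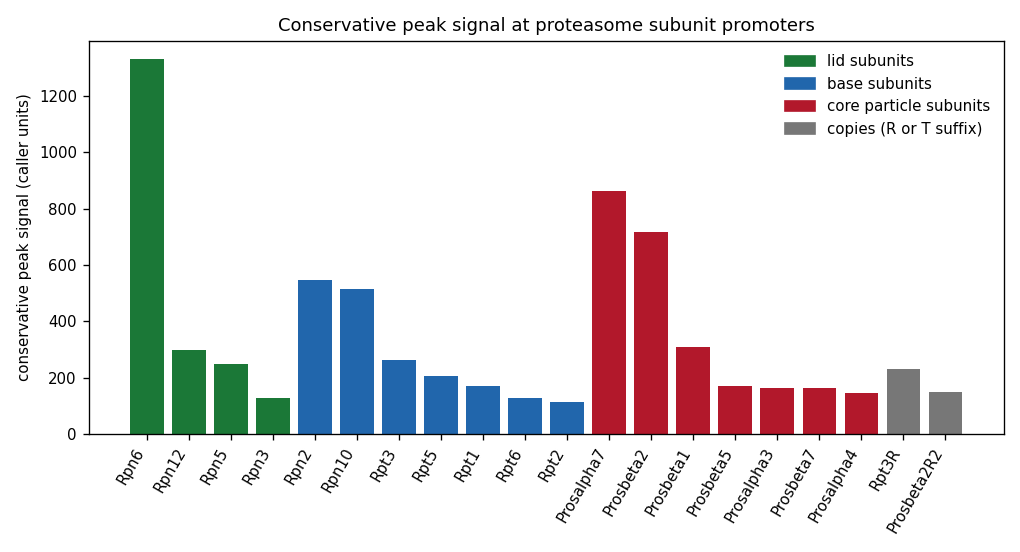
Conservative peak signal (vertical axis, in the peak caller's units) of the 20 members with a peak, ordered within the lid, base, core and copies. Rpn6 stands at 1330.1, Prosalpha7 and Prosbeta2 follow at 862 and 717, and the 2 copies stand at 231 and 148.

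The median signal of the 20 members with a peak was 218, that of the 2980 coding genes with a peak was 227, in which a peak shared by several genes counts for each, and that of all conservative peaks was 170.4. Among the 2793 conservative peaks Rpn6 ranked 3, Prosalpha7 27, Prosbeta2 56, Rpn2 179 and Rpn10 204, while the other members with a peak ranked from 667 to 1947. The members' median thus lay below that of all coding genes with a peak and above that of all peaks, and neither difference was tested.

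Each replicate also had its own thresholded list. Thresholded peaks were found at 16, 21 and 14 members in replicates 1, 2 and 3, with 15.9, 19.8 and 15.6% of all coding genes for comparison. In all 3 replicates a peak was found at 13 members (27.1%), against 12.5% of all coding genes. These 13 were 5 of the base, 4 of the core, 3 of the lid and the copy Rpt3R.

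Many proteasome genes share their promoter with another gene. Of the 20 summits, 15 had the TSS of a second coding gene within 500 bp, in each case on the opposite strand. Such promoters are common among all genes with a peak. An opposite-strand coding TSS within 500 bp upstream of a start was present at 1724 of the 2980 coding genes with a peak, and at 14 of the 20 members with one. The second gene's TSS was the nearer in 6 of these (Rpn5, Rpt3, Rpt5, Prosbeta1, Prosbeta5 and Prosbeta2R2) and the member's in 9. Examples are mRpL39, a mitochondrial ribosomal protein gene, at Prosbeta2, Rrp42, an exosome subunit gene, at Prosbeta1, and kat80, a katanin subunit gene, at Prosalpha4. For these peaks the data do not tell which of the genes the protein was bound for. Of the 20 summits 17 lay upstream of the member's nearest TSS, at a median distance of 60.5 bp for all 20, and Rpn10, Rpn3 and Rpt2 had theirs 6, 9 and 60 bp downstream, in the 5′ UTR. The like count for all conservative peaks is not given here, so this is not a trait of the members alone.

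**Figure D4:**
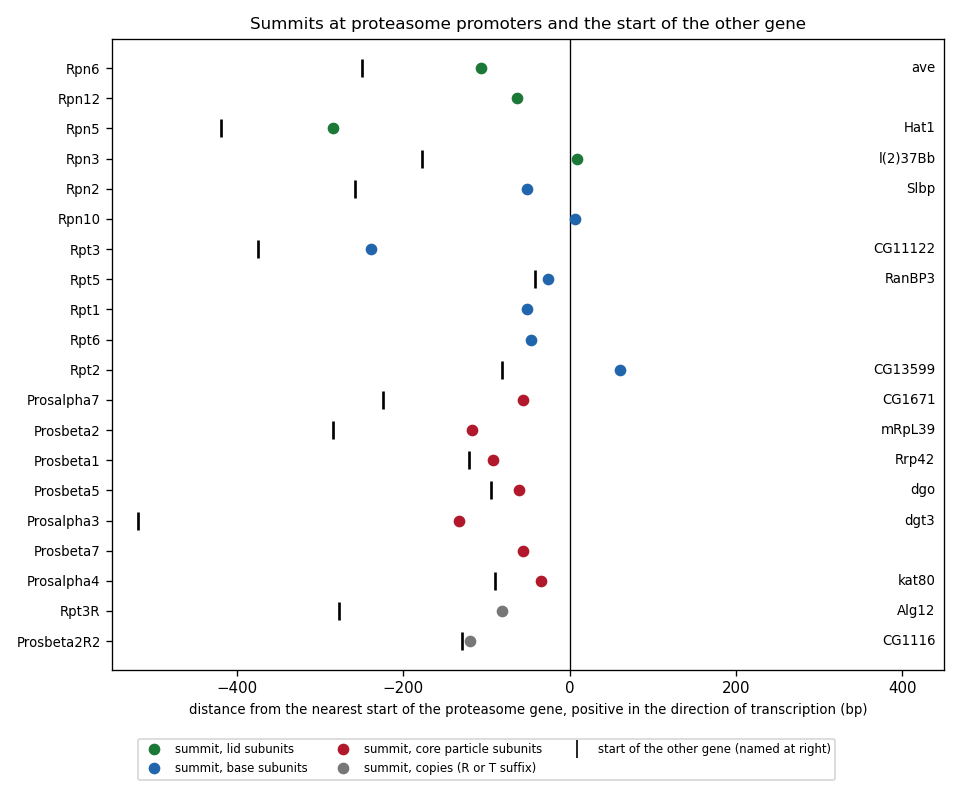
Position of the summit (coloured dots) and of the second gene's TSS (black ticks, named at the right) relative to the nearest TSS of each member, which is at 0, in bp along the member's direction of transcription. Where a tick is drawn, most dots lie between it and 0, and all dots lie within 284 bp of the start.

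A divergent start, meaning a coding TSS on the opposite strand within 500 bp upstream, was present at 21 of 32 ordinary subunits (65.6%), at 3 of 16 copies and at 27.4% of all coding genes. With a divergent start, 12 of 21 ordinary subunits (57.1%) had a peak, against 45.2% of all coding genes of that kind. Without one, 6 of 11 (54.5%) had a peak, against 12.4% of all coding genes of that kind. Peaks at Rpn12, Rpn10, Rpt1, Rpt6, Prosbeta7 and Prosalpha3 were of the second kind. The 2 copies with a peak, Rpt3R and Prosbeta2R2, were among the 3 with a divergent start, and the third of these was Prosalpha1R. None of the 13 other copies had a conservative peak.

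The copies can be set beside the ordinary subunits they resemble. Rpt3R, next to Alg12, a gene of sugar transfer to proteins, had a conservative signal of 231 (3R from 9756053 to 9756536), replicate signals of 37.3, 109 and 79.7 and a percentile of 88.7 ± 2.10 (SD, n = 3). The percentile of Rpt3 was 90.0 ± 0.38, so the pair differed by less than the spread of Rpt3R between replicates. Prosbeta2R2 had a conservative signal of 148 (3R from 5219406 to 5219889), replicate signals of 22.1, 80.9 and 44.5 and a percentile of 82.1 ± 3.92, with a thresholded peak in replicate 2 only. Its summit lay 9 bp from the TSS of CG1116 and 120 bp from its own. Prosbeta2R1, the second copy of Prosbeta2, had no region in replicates 1 and 2 and a signal of 17.2 in replicate 3. The other copies had no thresholded peak in any replicate, and their mean percentiles ran from 16.6 for Prosalpha1R to 57.7 for Rpt4R.

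Promoters were searched for short elements on both strands from 250 bp before to 50 bp after the 5′-most TSS. TATCGATA was in 12 of 32 ordinary promoters (37.5%), in none of the 16 copies and in 9.36% of all coding promoters. The DRE of Rpt3R falls outside this window, since it lies 39.5 bp downstream of a summit that was assigned to the other of that gene's 2 TSSs, 81 bp from it. Among all coding genes the element went with a peak, since 74.9% of promoters with it and 15.8% of those without it had one. The ordinary subunits did not show this split, with 6 of 12 (50%) with it and 12 of 20 (60%) without it. Rpn12, Rpn3, Rpt5, Prosbeta2, Prosbeta1 and Prosalpha3 had both element and peak, while Rpn7, Rpn9, Rpn13, Prosbeta6, Prosalpha6 and Prosalpha5 had the element alone. For the first 7 letters, TATCGAT, the counts were 10 of 17 with the element and 8 of 15 without it, against 67.2 and 11.1% of all coding genes. The counts of subunits are small, and the difference from all coding genes was not tested.

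Around the summits themselves, within 50 bp, TATCGATA was found at 4 of 20 members (Rpt5, Prosbeta1, Prosalpha3 and Rpt3R; 20%) and at 18.4% of all 2793 conservative summits. Within 250 bp it was found at 8 of 20 (40%) and at 36.2% of all. The T-box core GGTGTGA was in no proteasome promoter by the window above, against 2.87% of all coding promoters. Prosbeta7 held it within 50 bp of the summit, 1 of 20 summits, against 1.15% of all. The same summit held TGACNNNGC, also at 1 of 20 and at 3.33% of all, and the 2 matches overlap. That summit lies in the 5′ UTR, downstream of the promoter window. Motif 1, GGTCACACT, was in 5 ordinary promoters (Rpn7, Rpn1, Prosalpha2, Prosbeta3 and Prosalpha4; 15.6%) and 6.05% of all coding promoters. TGACNNNGC, the core of the site bound by cap-n-collar factors that are known to act on proteasome genes, was in 5 ordinary promoters (Rpn7, Rpn1, Prosalpha2, Prosbeta3 and Rpt6; 15.6%) and 8.63% of all. Motif 1 on the other strand can share letters with TGACNNNGC, and the matches overlapped in Rpn1 and Prosbeta3. Of the 5 subunits with Motif 1, Prosalpha4 had a conservative peak, and 32.9% of all coding genes with it had one. Of the 5 with TGACNNNGC, Rpt6 had a conservative peak, and 19.4% of all coding genes with it had one.

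Of 24 genes listed as working with the particle, 23 were found. They include Sem1, a small lid subunit that the choice by symbol left out, which had no peak. Peaks were called at 9 of the 23 (39.1%), beside 56.25% of the 32 ordinary subunits, 41.7% of all members and 21.4% of all coding genes. The strongest were rngo, a ubiquitin shuttle protease (656), TER94, the segregase that pulls marked proteins out of complexes (398), and sip3, a ubiquitin ligase of the endoplasmic reticulum (317). Ubqn, a shuttle (316), Npl4, a partner of TER94 (312), and Keap1, the inhibitor of the cap-n-collar factor (286), came next, and PI31, Uba1 and Usp14 followed. cnc, the cap-n-collar factor, and Hrd3, maf-S and p47 were without a peak. Other complexes with subunits built like those of the lid gave 4 of 8 for the COP9 signalosome, of which 9 genes were listed, and 5 of 16 for translation initiation factor eIF3. Both lists hold paired genes, such as CSN1a and CSN1b or eIF3f1 and eIF3f2, so they are not like the ordinary subunits alone. Cytosolic ribosomal proteins gave 39 of 88 (44.3%). The differences between these groups and the proteasome were not tested.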

How the data were processed

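ChIP-seq peak lists of 3 biological replicates of 1 group were used, on dm6 per the labels. The signal of a region is the value the authors' peak caller wrote for it, as deposited, on a scale that is not stated. Per the deposited file listings, the series lists derive from the alignments of all 3 replicates and a further file shared by all lists, whose nature is not stated. Which replicates each series list compares is not stated either. Aligner, caller, read length and depth are not stated. Of the series lists, the 4 ranked ones stayed out of the analysis.

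Genes and TSSs came from Ensembl release 115 (annotation 6.54, the dm6 sequence). All annotated TSSs of a gene counted, and a peak could count for several genes. Analyses used Python 3.11.15, numpy 2.4.6, pandas 2.3.3 and Biopython 1.88. On simulated data, the assignment recovered 200 of 200 implanted genes and gave 0 of 300 distant peaks to a gene. The implanted summits lay inside the 500 bp limit and the distant ones well outside it. The outcome thus checks the code only, and not which gene a real peak belongs to. The members, lists and alternatives were chosen with earlier results of these data known. Motifs other than TATCGATA and TATCGAT, the split of peaks by TATCGAT, the search for repeated 50-base stretches and the counts without Prosalpha1 and Prosalpha1R were added after the data were examined. By rule, values in every replicate are given for the 12 ordinary subunits with the highest conservative signal, for copies with a thresholded peak and for the 4 ordinary subunits without a conservative peak whose median percentile over the replicates was highest. Of the pathway list, the 6 strongest and the first 4 without a peak in the alphabet are described. Replicate values of Rpn3, Rpt2 and Prosbeta2R1 were chosen after they were seen.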

Additional observations from a re-analysis of the deposited data

How the results depend on the processing

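Counts of members with a peak were 18 to 23 with a shorter or longer distance to the TSS, any base of a peak, the 5′-most TSS (19, without Rpn6) or the other series lists, against 18.3 to 25.0% of all coding genes (37.5 to 47.9% of members), and 20 without Prosalpha1 and Prosalpha1R. Of the other series lists, Rpt2 had no peak in both shorter ones and Prosalpha4 none in the shortest, while Prosbeta6 had one in the longest and the middle list and Rpn11 and Prosalpha6 in the longest. With each peak given to the nearest TSS only, 14 members were left (29.2%, against 15.7% of all coding genes), and the copies went to 1. Conservative peaks above the median signal gave 12 members, 3 of the core, 1 copy and 1945 coding genes. Peaks overlapped in both other replicates gave 13 to 16 members without each replicate in turn (4 to 7 of the core, 1 copy), and 1818 to 1995 coding genes. Without replicate 1 and without replicate 2 alike, the members lost were Prosalpha4, Rpt2, Rpt6, Prosbeta2R2, Prosbeta7, Prosalpha3 and Rpn3. The cause of these shifts was not tested beyond the smaller sets of peaks. The median percentile of ordinary subunits was 74.8 among genes with a region and 55.9 in thresholded lists, where most genes share the lowest place. No paired analysis was possible because all samples form 1 group. Depth is unknown, so a missing peak is not a sign that binding is absent.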
